A study of Mus musculus with 6 samples.

Results

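The genes described here encode 10 feedback inhibitors of mitogen-activated protein kinase (MAPK) signalling: the dual-specificity phosphatase genes Dusp1, Dusp2, Dusp4, Dusp5, Dusp6, Dusp10 and Dusp16, the Sprouty genes Spry1 and Spry2, and the Sprouty-related gene Spred1. They were taken by exact gene symbol from the annotation of the array, and make up 10 of the 30142 genes with a transcript cluster named for 1 symbol. Such a cluster gathers the probes of a gene or transcript into a single value, and each of the 10 genes had a single one. Expression was measured in hematopoietic stem cells (HSCs), the cells that renew the blood, sorted from bone marrow after depletion of lineage-marked cells. The arrays comprised 3 of Cdk19 knockout mice, labelled CDK19-/-, and 3 of wild-type mice, all aged 6 to 8 weeks. CDK19, one of the Mediator kinases, takes part in passing signals from transcription factors to RNA polymerase II. The title of the series names HSC proliferation and the transcription of p21 by p53 as the questions. No treatment is named, and the labels give neither the deleted stretch of Cdk19, nor the sex of the mice, nor the markers of the gate, nor how many mice each array holds. The arrays are called biological replicates, so the p-values below measure the spread between these samples.

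MAPK cascades carry signals from cytokine and growth factor receptors, stress and inflammation to the nucleus through 3 well-known branches that end in ERK, p38 and JNK. The dual-specificity phosphatases of this family, also called MAPK phosphatases, switch these kinases off by removing phosphate from the threonine and the tyrosine that activate them. Sprouty and Spred proteins act further upstream and restrain the passage of the signal from receptors through Ras and RAF to ERK. Many of these inhibitor genes are themselves induced by the kinases that they restrain, so that their transcripts are often used as a readout of pathway activity. In mice, Spred1 is known as a brake on HSC self-renewal.

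Dusp16 was the member that changed. Its level was 9.37, 9.33 and 9.33 in the knockout arrays, against 8.66, 8.78 and 8.79 in the wild-type arrays, on the scale of the deposited values, taken as log2. Spry2 was 0.40 higher in the knockout, a difference that did not pass the test, and Spry1 was 0.26 lower, with an adjusted p of 0.0576 in limma. The intervals of the other 7 genes all lay within 0.5 of 0 on the log2 scale, among them those of Dusp1, Dusp5 and Dusp6, which are widely used as readouts of MAPK activity. Of the 10 genes tested with limma, 1 was called higher in the knockout, 0 lower, and 9 were not called at a Benjamini-Hochberg adjusted p under 0.05. Without adjustment, 4 of the 10 had p under 0.05 in limma. The matching share of all tested clusters was not counted, so this number has no background beside it. Among all 39543 tested clusters, 7.8% were called, 2.96% higher and 4.84% lower, so 1 call among 10 genes is near the background. Groups did not overlap for 4 of the 10 genes, 3 of them higher and 1 lower in the knockout, against 26.5% of all tested clusters. The median change of the 10 genes was 0.03, with 5 changes above 0 and 5 below, and that of all tested clusters was 0.003, with 51.6% above 0. The values are taken here as log2, an assumption that every fold size below depends on.

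**Figure D1:**
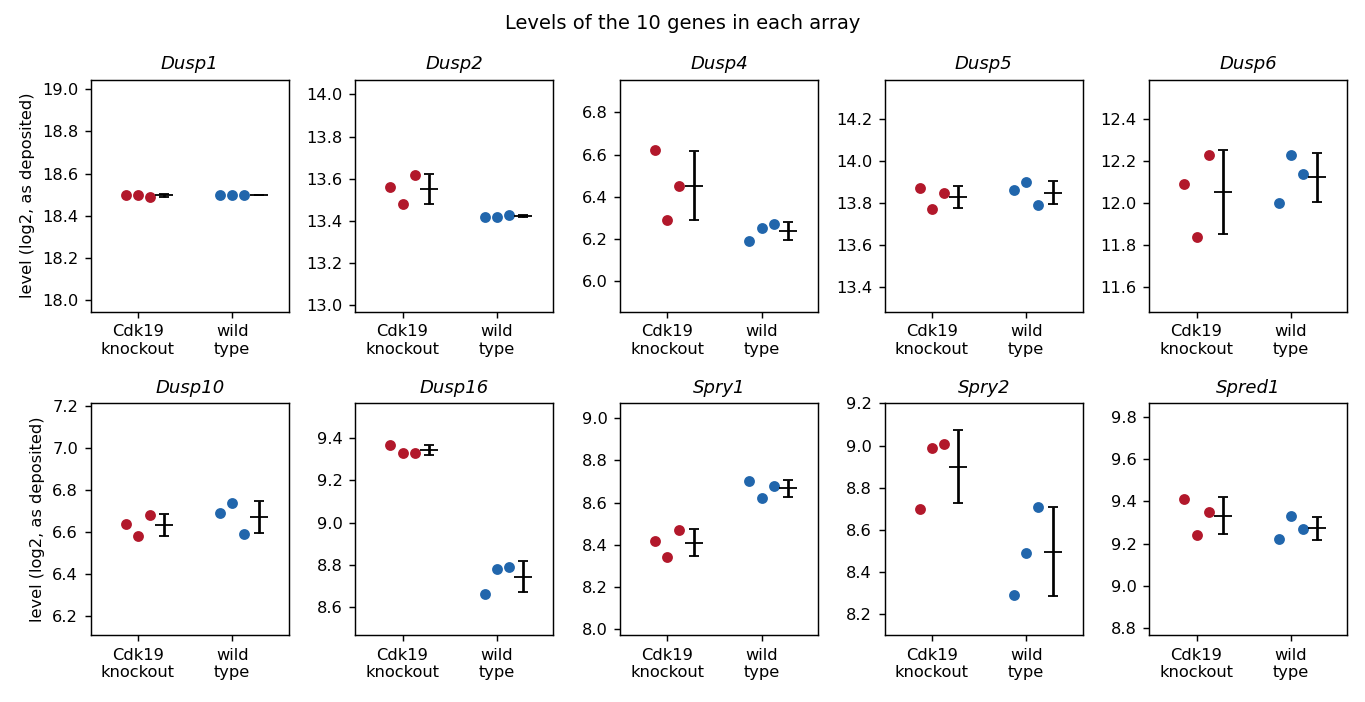
Levels of the 10 genes in each array, as deposited on a scale taken as log2 (vertical axes), with knockout arrays left (red) and wild-type arrays right (blue); black bars give the mean and SD of 3 arrays, and each panel spans the same number of log2 units. Dusp16 shows a gap of 0.54 between the lowest knockout and the highest wild-type array, and the Dusp1 points lie on 1 line near 18.5.

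The sequences just upstream of 5 genes are shown because MAPK-responsive transcription factors bind short motifs there: Dusp16 as the gene that changed, Dusp1 and Dusp5 as genes of the family with the longer motifs and no change called, Spry1 as the gene closest to the threshold, and Dusp8, a relative outside the 10 genes that was called higher and also holds the complete CRE. They come from RefSeq, mouse build GRCm38.p6, and are the 250 bases before the annotated start, written 5′ to 3′ on the strand of the gene. Capitals mark every match on either strand of TGACGTCA (the cyclic AMP response element, CRE), of its part TGACG, which every CRE also contains, of GCGTG (the core of EGR and hypoxia sites) and of CArG, the site of serum response factor.
Dusp16 (chr6:134792629-134792878, minus strand): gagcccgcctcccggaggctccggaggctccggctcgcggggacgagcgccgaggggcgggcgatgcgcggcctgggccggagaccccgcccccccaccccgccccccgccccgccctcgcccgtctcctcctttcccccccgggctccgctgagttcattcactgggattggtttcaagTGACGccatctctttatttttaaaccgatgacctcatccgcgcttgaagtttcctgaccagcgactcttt
Dusp1 (chr17:26508473-26508722, minus strand): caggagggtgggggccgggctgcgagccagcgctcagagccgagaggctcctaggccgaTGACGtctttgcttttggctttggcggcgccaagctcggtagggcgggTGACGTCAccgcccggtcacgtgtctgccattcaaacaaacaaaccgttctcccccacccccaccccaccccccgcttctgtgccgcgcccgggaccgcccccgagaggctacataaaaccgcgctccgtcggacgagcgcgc
Dusp5 (chr19:53528895-53529144, plus strand): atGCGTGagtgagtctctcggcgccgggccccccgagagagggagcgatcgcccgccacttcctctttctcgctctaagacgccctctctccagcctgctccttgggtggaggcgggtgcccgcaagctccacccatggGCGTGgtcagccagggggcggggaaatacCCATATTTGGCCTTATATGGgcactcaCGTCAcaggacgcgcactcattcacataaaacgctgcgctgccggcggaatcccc
Spry1 (chr3:37639697-37639946, plus strand): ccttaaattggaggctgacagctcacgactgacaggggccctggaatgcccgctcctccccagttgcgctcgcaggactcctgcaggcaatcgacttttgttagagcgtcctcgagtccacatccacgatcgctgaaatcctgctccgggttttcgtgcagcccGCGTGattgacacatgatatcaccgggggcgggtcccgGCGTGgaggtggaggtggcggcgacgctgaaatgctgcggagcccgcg
Dusp8 (chr7:142095285-142095534, minus strand): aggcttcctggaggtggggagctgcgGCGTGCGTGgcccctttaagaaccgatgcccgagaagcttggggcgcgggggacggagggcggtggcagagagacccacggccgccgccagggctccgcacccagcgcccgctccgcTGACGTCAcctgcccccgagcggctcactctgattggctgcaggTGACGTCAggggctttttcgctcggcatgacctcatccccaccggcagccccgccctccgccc
The motifs were searched in a window that also held the 50 bases after the start. Of the 10 genes, 9 had such a window in the table used. TGACG stood in 4 of the 9 (Dusp1, Dusp2, Dusp5 and Dusp16), against 20.8% of all 32851 windows of the table. The Dusp16 window held it once, at position -70 from the start, and no other searched motif. The complete CRE stood in 1 of the 9, Dusp1, at position -143, against 1.79% of all windows. The relative Dusp8 held it at positions -107 and -63, so it stood upstream of a gene that was called and of one that was not. Spred2 and Dusp3, relatives that were also called higher, held no complete CRE in their windows. No other relatives were searched, so the CRE was not compared between called and uncalled genes. CArG stood in 1 of the 9, Dusp5, which held a pair of adjacent matches, against 1.63% of all windows. GCGTG stood in 5 of the 9 (Dusp2, Dusp5, Spry1, Spry2 and Spred1), with 3 matches in the Spry1 window, against 32.4% of all windows. The ETS motif CCGGAA stood in 1 of the 9 (Spry2), against 14.9%, and the AP-1 motif TGANTCA in 0 of the 9, against 7.81%. Windows of Dusp6 and Dusp10 held none of these letters. The 9 windows were 57.3% to 72.3% G and C, above the median of 52.7% over all windows, and motif shares depend on base composition. A match describes letters only, and binding was not measured.

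Of the phosphatases that prefer p38 and JNK, Dusp16 rose in the knockout and Dusp10 was not called. Dusp16, also known as MKP-7, acts mainly on JNK and p38 and lies on chromosome 6. It averaged 9.34 ± 0.02 in the knockout and 8.74 ± 0.07 in wild type (SD, n = 3 arrays each). Every knockout array lay above every wild-type array, with a gap of 0.54 between the nearest values. The change was 0.60 on the log2 scale, or 1.52-fold, with an SE of 0.06, a 95% interval of 0.46 to 0.74 and an adjusted p of 0.00299 (limma, Benjamini-Hochberg). Leaving out any 1 array kept the call, with changes of 0.56 to 0.62 and adjusted p of 0.0124 to 0.0182 in the limma fit. The adjacent genes on chromosome 6, picked by position after the values were seen, were not called. Borcs5 differed by -0.003 and Crebl2 by -0.10, with limma adjusted p of 0.987 and 0.452.

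Dusp10, or MKP-5, shares the preference of Dusp16 for p38 and JNK. Its level was 6.64, 6.58 and 6.68 in the knockout arrays, against 6.69, 6.74 and 6.59 in the wild-type arrays. The groups overlapped, and the change of -0.04 had a 95% interval of -0.20 to 0.12 (limma, adjusted p = 0.803). The interval of Dusp10 thus ended below the lower bound of 0.46 for Dusp16, although the difference between these genes was not tested.

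The nuclear phosphatases Dusp1, Dusp2, Dusp4 and Dusp5 are classic immediate or early response genes. Dusp1 (MKP-1), which acts on p38, JNK and ERK and rises within minutes of cell stress, was at 18.50, 18.50 and 18.49 in the knockout arrays, against 18.50 in each of the 3 wild-type arrays. These readings differed by no more than the last decimals, with a change of -0.003 and a 95% interval of -0.06 to 0.05. The level of Dusp1 lay near the top of the scale, which ended at 19.93. Among 361 tested clusters with a mean above 18, the median size of a change was 0.017, against 0.107 over all tested clusters, and 2 of the 361 were called. Whether changes are compressed near the top of the scale was not tested.

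Dusp2 (PAC-1), a phosphatase best known from activated blood cells, was at 13.56, 13.48 and 13.62 in the knockout arrays, against 13.42, 13.42 and 13.43 in the wild-type arrays. The groups did not overlap and the wild-type arrays were nearly equal. The difference was nonetheless small, 0.13 on the log2 scale with a 95% interval of 0.01 to 0.25, and did not pass (limma, adjusted p = 0.184). Dusp4 (MKP-2), which acts on ERK and other MAPKs, was dimmer, at 6.62, 6.29 and 6.45 in the knockout arrays, against 6.19, 6.25 and 6.27 in the wild-type arrays. The knockout arrays were spread out and came within 0.02 of the wild-type range. The difference of 0.22 had a 95% interval of -0.01 to 0.44 and an adjusted p of 0.249 in limma. Dusp5, specific for ERK, was at 13.87, 13.77 and 13.85 in the knockout arrays, against 13.86, 13.90 and 13.79 in the wild-type arrays. The groups lay on top of each other, and the change of -0.02 had a 95% interval of -0.14 to 0.10 (limma, adjusted p = 0.875).

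Dusp6 (MKP-3) is the cytoplasmic phosphatase of ERK and a standard transcript readout of ERK activity. Its level was 12.09, 11.84 and 12.23 in the knockout arrays, against 12.00, 12.23 and 12.14 in the wild-type arrays. The lowest value belonged to a knockout array and the highest was shared by both genotypes. The change of -0.07 had an SE of 0.11 and a 95% interval of -0.33 to 0.19 (limma, adjusted p = 0.788).

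**Figure D2:**
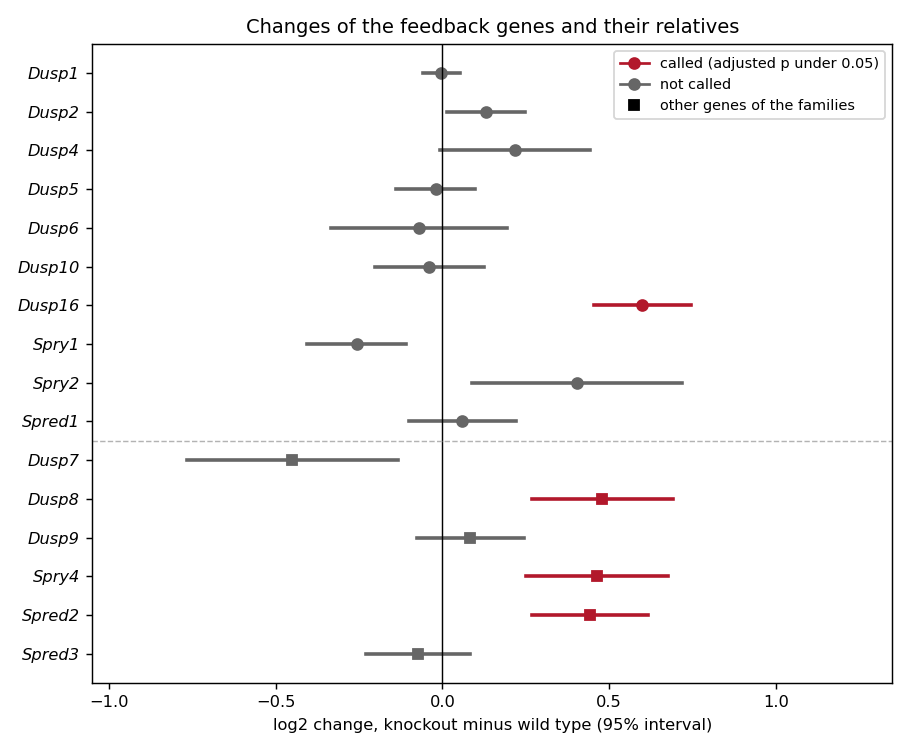
Change of the 10 genes (circles) and of 6 further tested genes of the same families (squares), as knockout minus wild type on the log2 scale with the 95% interval of the limma fit; red marks an adjusted p under 0.05. Dusp16 stands alone among the 10 genes at 0.60, Spry1 lies left of 0 at -0.26, and Dusp8, Spry4 and Spred2 lie between 0.44 and 0.48.

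The Sprouty genes differed in opposite directions, and neither change passed the test. Spry2, an inhibitor of ERK signalling downstream of receptor tyrosine kinases, was at 8.70, 8.99 and 9.01 in the knockout arrays, against 8.29, 8.49 and 8.71 in the wild-type arrays. The groups overlapped by 0.01, where the lowest knockout array met the highest wild-type array. The difference was 0.40, or 1.32-fold, with an SE of 0.13, a 95% interval of 0.09 to 0.72 and an adjusted p of 0.136 in limma. Spry1, a close relative with a similar role, was at 8.42, 8.34 and 8.47 in the knockout arrays, against 8.70, 8.62 and 8.68 in the wild-type arrays. All knockout arrays were below all wild-type arrays, by at least 0.15. The difference was -0.26, or 1.19-fold lower, with an SE of 0.06, a 95% interval of -0.40 to -0.11, an unadjusted p of 0.00486 and an adjusted p of 0.0576 in limma. Spry1 was called lower under 2 of the 13 alternative settings, with adjusted p of 0.0474 under robust moderation and 0.0384 after a stricter filter on dim clusters. The opposite signs of Spry1 and Spry2 were not tested against each other.

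Spred1 encodes a membrane-bound inhibitor of Ras signalling that acts with neurofibromin. Its level was 9.41, 9.24 and 9.35 in the knockout arrays, against 9.22, 9.33 and 9.27 in the wild-type arrays. The groups overlapped, and the change of 0.06 had a 95% interval of -0.10 to 0.22 (limma, adjusted p = 0.688).

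Some arrays tended to be the lowest of their genotype across the 10 genes. Among the knockout arrays, array 2 gave the lowest value for 8 of the 10 genes, ties included, and alone for 7 of them. Among the wild-type arrays, array 1 gave the lowest value for 7 of the 10, ties included, and alone for 5 of them. Such counts were not made over all clusters. Dusp16 had an SD of 0.02 in the knockout arrays, and Spry2 an SD of 0.17 there.

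**Figure D3:**
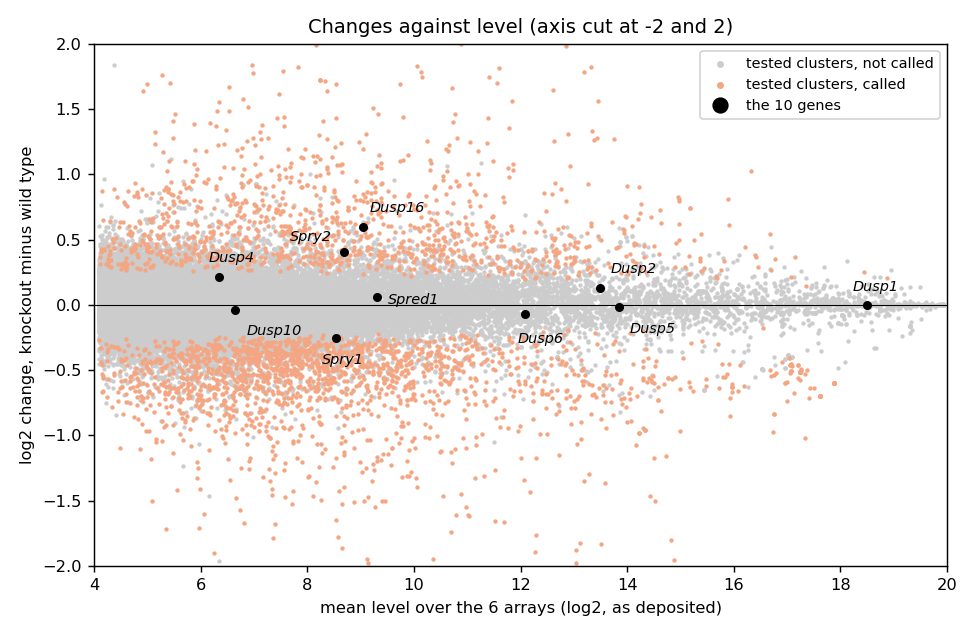
Change (knockout minus wild type, log2) against the mean level over the 6 arrays (log2, as deposited) for all 39543 tested clusters, with called clusters in orange and the 10 genes in black; clusters beyond 2 either way fall outside the axis. The cloud narrows towards the right end, where Dusp1 lies, and Dusp16 lies at 0.60.

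Relatives of the 10 genes were read from the same fit. Of the 7 other MAPK phosphatase, Sprouty and Spred genes, 6 were tested, 3 were called higher and 0 lower, with a median change of 0.26. Spred2, whose protein inhibits Ras signalling like Spred1, was at 9.22, 9.01 and 9.04 in the knockout arrays, against 8.65, 8.62 and 8.67 in the wild-type arrays (change 0.44, SE 0.07, limma adjusted p = 0.0155). Dusp8, a phosphatase that prefers p38 and JNK like Dusp16, was at 5.52, 5.61 and 5.57 in the knockout arrays, against 4.92, 5.19 and 5.15 in the wild-type arrays (change 0.48, SE 0.09, limma adjusted p = 0.0231). Spry4, another Sprouty gene, was at 5.11, 5.05 and 4.86 in the knockout arrays, against 4.56, 4.45 and 4.62 in the wild-type arrays (change 0.46, SE 0.09, limma adjusted p = 0.0269). All 3 were without overlap, and all 3 depended on the full set of arrays. The call was lost in 3 of the 6 fits without 1 array for Spred2 (adjusted p up to 0.072), in 4 for Dusp8 (up to 0.075) and in 5 for Spry4 (up to 0.10), and 1 of these 3 genes was called without knockout array 1 or 2 or wild-type array 1 or 2, and 0 without wild-type array 3.

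The remaining relatives did not pass. Dusp7, which acts on ERK in the cytoplasm, was at 7.29, 6.83 and 7.12 in the knockout arrays, against 7.38, 7.65 and 7.56 in the wild-type arrays. The groups did not overlap and the difference was -0.45, but the knockout arrays had an SD of 0.23, and the limma adjusted p was 0.103. Dusp9, another ERK phosphatase, differed by 0.08 and Spred3 by -0.07, with limma adjusted p of 0.555 and 0.594. Spry3 was too dim to test. Of 14 small atypical dual-specificity phosphatase genes, 8 were tested, 1 was called higher and 0 lower, with a median change of -0.03. The gene called was Dusp3 (VHR), which can act on ERK and JNK, at 6.78, 7.01 and 6.91 in the knockout arrays, against 6.43, 6.41 and 6.47 in the wild-type arrays. Its change was 0.46 with a limma adjusted p of 0.016, and the call was lost without knockout array 3 and without each wild-type array in turn, with adjusted p up to 0.072. Without knockout array 2, Dusp18 passed as well (limma adjusted p = 0.035). The lowest change of that list was that of Dusp19, -0.10 with a limma adjusted p of 0.641.

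Other inhibitors of Ras and ERK signalling moved in both directions. Of 16 tested, 2 were called higher and 2 lower, with a median change of -0.05. Rasa2, which encodes a GTPase-activating protein that turns Ras off, was at 8.68, 8.51 and 8.60 in the knockout arrays, against 7.95, 8.04 and 7.91 in the wild-type arrays (change 0.63, limma adjusted p = 0.00436). Rasa3, encoding a related protein that acts on Ras and Rap, was at 9.74, 9.55 and 9.75 in the knockout arrays, against 10.22, 10.31 and 10.33 in the wild-type arrays (change -0.61, limma adjusted p = 0.00589). Both calls held without any 1 array, in opposite directions. Rasal3, a Ras inhibitor gene of blood cells, fell by 0.46 (limma adjusted p = 0.0105), and the call was lost without wild-type array 2 (0.053). Errfi1, an inhibitor of the EGF receptor family, rose by 0.55 (limma adjusted p = 0.0341) and was lost without each array but knockout array 1, with adjusted p up to 0.12. Its call was also lost under a common median (0.052) and with the replicate block (0.09).

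In the kinase cascades, most genes were not called. Of 17 tested genes of the Ras-RAF-MEK-ERK cascade, 1 was called higher and 0 lower, with a median change of -0.02. Map3k8 (Tpl2), a kinase that activates MEK in inflammatory signalling, was at 8.68, 8.44 and 8.62 in the knockout arrays, against 7.87, 7.85 and 7.96 in the wild-type arrays. The groups were well apart, with a change of 0.69 and a limma adjusted p of 0.00509 that held without any 1 array. The lowest change was that of the RAF kinase gene Araf, -0.21, with a limma adjusted p of 0.126.

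Of 18 tested genes of the p38 and JNK cascades, 2 were called higher and 2 lower, with a median change of -0.02. Map2k3 (MKK3), which activates p38, was at 11.36, 11.15 and 11.32 in the knockout arrays, against 10.35, 10.42 and 10.33 in the wild-type arrays. The groups were apart by far more than their spread, with a change of 0.91 and a limma adjusted p of 0.00127 that held without any 1 array. The other 3 calls rested on the full set of arrays. Map3k2, an upstream kinase of JNK and ERK5, rose by 0.45 (limma adjusted p = 0.0245) and was lost without each array but knockout array 2, with adjusted p up to 0.094. Its call was also lost under a common median (0.052) and with the replicate block (0.092). Map3k1, an upstream kinase of JNK, fell by 0.28 (0.0268) and Tab1, a partner of the kinase TAK1, by 0.35 (0.0392, both limma adjusted p). Both were lost in each of the 6 fits without 1 array, with adjusted p up to 0.11 and 0.15. Of 7 tested kinases that MAPKs activate, 2 were called higher and 1 lower. Mapkapk2 (MK2), the main substrate kinase of p38, was at 13.10, 13.03 and 13.16 in the knockout arrays, against 12.38, 12.60 and 12.51 in the wild-type arrays (change 0.60, limma adjusted p = 0.00484). Rps6ka3 (RSK2), a substrate kinase of ERK, rose by 0.45 (limma adjusted p = 0.00703), and both calls held without any 1 array. Rps6ka5 (MSK1), a nuclear kinase downstream of ERK and p38, fell by 0.36 (limma adjusted p = 0.0109) and was lost without each wild-type array in turn, with adjusted p of 0.051 to 0.057.

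**Figure D4:**
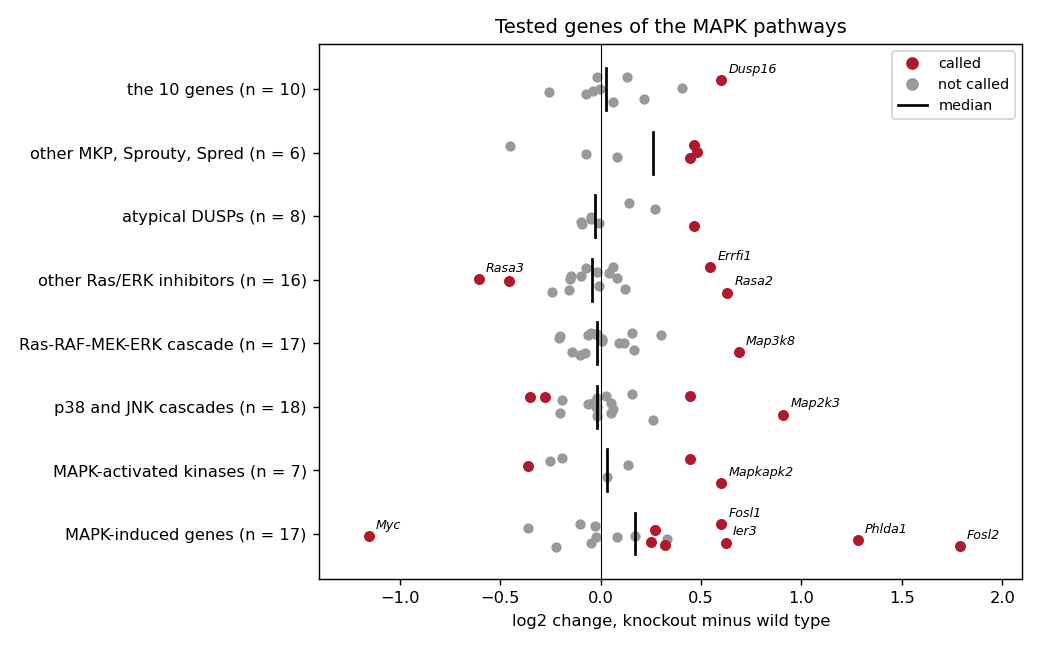
Change of each tested gene of the MAPK pathway lists (knockout minus wild type, log2), with called genes in red, genes not called in grey and the median of each list as a black line; points are spread vertically only to keep them apart. The 10 genes have 1 called point, Dusp16, and the list medians lie between -0.05 and 0.26.

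Transcripts that MAPK signalling is known to induce changed unevenly. Of 17 tested, 7 were called higher, 1 lower and 9 were not called, with a median change of 0.17. Fosl2, an AP-1 transcription factor gene, was at 14.09, 14.03 and 14.13 in the knockout arrays, against 12.32, 12.37 and 12.20 in the wild-type arrays, with the smallest adjusted p of the list (7.46e-05, limma). Phlda1, a gene induced by ERK, was at 8.22, 7.95 and 7.54 in the knockout arrays, against 6.45, 6.59 and 6.83 in the wild-type arrays (change 1.28, limma adjusted p = 0.00988). Myc, a growth-promoting transcription factor gene, went the other way, with 12.23, 12.04 and 12.16 in the knockout arrays, against 13.26, 13.32 and 13.31 in the wild-type arrays (change -1.15, limma adjusted p = 0.000268). These 3 calls held without any 1 array. Mcl1, a survival gene, rose by 0.32 (limma adjusted p = 0.0103, lost without wild-type array 2 at 0.051) and Fosl1, another AP-1 gene, by 0.60 (limma adjusted p = 0.0187, lost in 5 of the 6 fits without 1 array, up to 0.07). Of the ERK targets named whatever their values, Phlda1 and Spry4 were called higher, as given above, and Etv4 was too dim to test. The others did not pass: Egr1 differed by -0.05 (limma adjusted p = 0.713), Etv5 by -0.22 (0.143) and Fos by -0.03 (0.603). Fos lay near 18 on the same scale as Dusp1. The count of genes called higher was 2 of 17 without wild-type array 2, 3 without knockout array 1, and 4 without knockout array 3 or wild-type array 1 or 3, and 2 were called lower without knockout array 3.

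Genes that respond to tissue handling, cell stress and inflammation share members with the MAPK targets, and some were higher in the knockout. Of 15 tested, 5 were called higher and 0 lower, with a median change of 0.08 and a mean level of 13.66 to 13.78 over the knockout arrays, against 13.47 to 13.50 over the wild-type arrays. Atf3, a stress-induced transcription factor gene, rose by 1.56 (limma adjusted p = 0.000181), Nfkbia, the NF-κB inhibitor gene, by 0.77 (0.000974), and Socs3, a cytokine signalling inhibitor gene, by 0.75 (0.00208). These 3 calls held without any 1 array. Fosb, an AP-1 gene at a mean level above 18, rose by 0.25 (limma adjusted p = 0.0192), and was lost in 4 of the 6 fits without 1 array (up to 0.061). Its call was also lost under a common median (0.10), without the intensity trend (0.065) and with the replicate block (0.079). Ier2, an immediate early gene, differed by -0.36, with a limma adjusted p of 0.106, and passed without knockout array 3 (0.018). The count higher was 3 of 15 without knockout array 1 or wild-type array 2 or 3. The part of handling in the changes of Dusp16 and its relatives was not tested.

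Levels across the 6 arrays were compared with those of Dusp16 to find the genes with the most similar pattern. Over 20259 clusters with 1 symbol, the 3 highest Pearson correlations over the 6 arrays were those of Jdp2 (0.9994), Xdh (0.9978) and Pvr (0.9974), given as a description, since any gene that separates the 2 genotypes scores high. A correlation above 0.95 was reached by 570 of these clusters. Jdp2, a repressor of AP-1 targets, was at 7.15, 7.09 and 7.09 in the knockout arrays, against 6.52, 6.62 and 6.64 in the wild-type arrays. Xdh, encoding xanthine dehydrogenase, was at 5.17, 5.17 and 5.14 in the knockout arrays, against 4.80, 4.86 and 4.85 in the wild-type arrays. Pvr, the mouse gene of the adhesion receptor CD155, was at 8.46, 8.42 and 8.47 in the knockout arrays, against 7.22, 7.38 and 7.35 in the wild-type arrays. Each shared the low reading of wild-type array 1.

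The label and the cell composition were checked with the same table. Cdk19 was at 11.49, 11.42 and 11.51 in the knockout arrays, against 12.49, 12.45 and 12.38 in the wild-type arrays (change -0.97, limma adjusted p = 0.000322), lower as the labels say, and whether its probes lie in the deleted stretch is not known here. Arrays correlated at 0.997 to 0.998 within a genotype and at 0.995 to 0.996 between genotypes. Of 9 tested HSC markers, 0 were higher and 2 lower in the knockout: Kit, a cytokine receptor gene, by 0.47 and Hlf by 0.56 (limma adjusted p = 0.00133 and 0.00282), while Slamf1 and Procr differed by -0.13 and 0.08 and were not called. Ly6a had no cluster named for it alone and was not analysed here. The tested HSC markers ranged in level from Fgd5 to Cd34. Fgd5 was at 5.21 in the knockout and 5.36 in wild type (means of 3 arrays), Slamf1 at 5.65 and 5.78, and Cd34 at 15.82 and 15.97. Hoxb5 was too dim to test. From the lists of other cells, Mpo was at 16.87 and 16.93, Flt3 at 13.62 and 14.51, and Ly6g at 4.78 and 4.93. How pure the sorted HSCs were was not tested.

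Markers of other blood cells differed between genotypes, and in bulk RNA fewer cells of a type and less RNA per cell cannot be told apart. Of 6 tested markers of lymphoid-primed progenitors, 0 were higher and 5 lower, led by Dntt and Flt3, and their mean level was 9.03 to 9.04 over the knockout arrays, against 9.80 to 9.85 over the wild-type arrays. B cell markers had 0 of 6 higher and 3 lower, led by Ebf1 and Cd79a, with mean levels of 5.02 to 5.09 over the knockout arrays, against 5.38 to 5.42 over the wild-type arrays. Of 5 tested genes listed as megakaryocyte markers, 3 were called higher and 0 lower. F2r had the largest change, 1.15, and Itga2b and Gp9 rose by 0.56 each. Pf4 and Vwf, higher by 0.26 and 0.15, were not called (limma adjusted p = 0.112 and 0.221), and Ppbp was too dim to test. Whether F2r marks megakaryocytes in mice was not tested. With F2r included, the mean level was 7.26 to 7.31 over the knockout arrays, against 6.74 to 6.77 over the wild-type arrays. Counts were smaller elsewhere: 1 of 8 monocyte markers (Itgam) and 2 of 9 neutrophil markers (Ctsg and Prtn3) were higher. Of 5 mast cell and basophil markers, 1 (Cpa3) was higher, with 0 lower in each of these lists. Called lower were 1 of 5 erythroid markers (Car1) and 1 of 3 stromal and endothelial markers (Pecam1), with 0 higher. From the list of Pecam1, Col1a1 and Col1a2 were not called, and Cdh5, Cxcl12, Lepr, Kitl and Acta2 were too dim to test. Of 4 T and NK cell markers, 0 were called. Several of these calls were lost in limma fits without 1 array. Ctsg and Prtn3 were both lost without knockout array 1 or 3 or wild-type array 2 or 3 (adjusted p up to 0.11 and 0.15), Ctsg also without knockout array 2, Prtn3 also without wild-type array 1, and both with the replicate block (0.073 and 0.059). Itgam was lost without wild-type array 2 or 3 (up to 0.075) and with the block (0.067), and Cpa3 without wild-type array 3 (0.051). Among markers called lower, Satb1 of the lymphoid-primed list was lost in 3 of the 6 fits (limma adjusted p up to 0.08). Igll1 of the B cell list was lost in 4 of the 6 (up to 0.084). Both were also lost with the block (0.093 and 0.08). Ly6g of mature neutrophils differed by -0.14 and was not called, and Cd3e of T cells was too dim to test, at 3.65 to 3.95 over the 6 arrays. The part of these shifts in the change of Dusp16 was not tested.

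**Figure D5:**
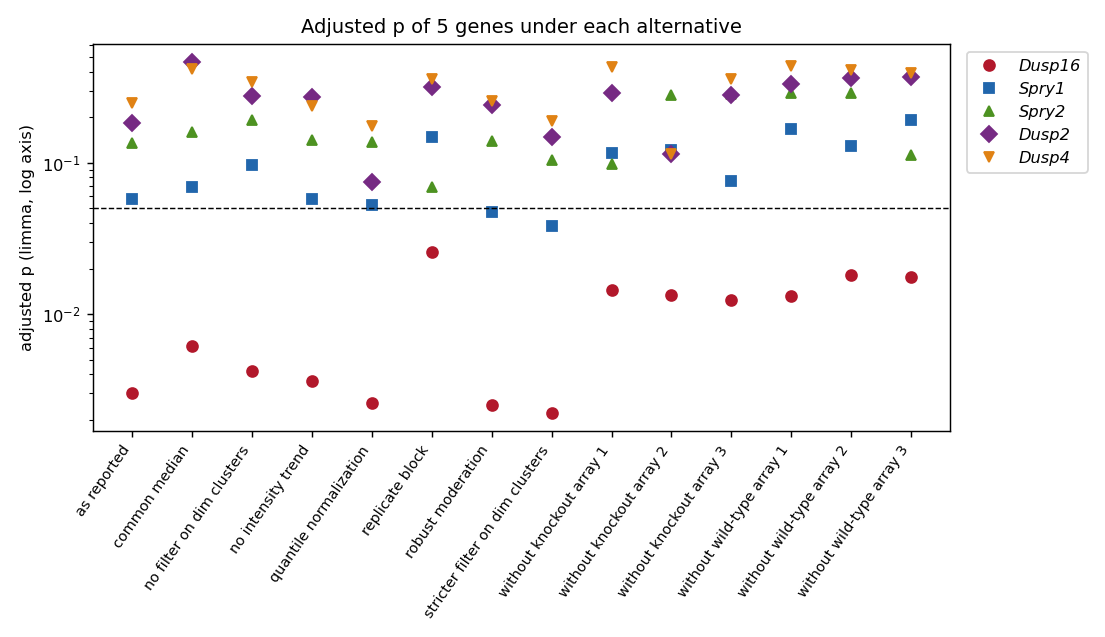
Adjusted p (limma, logarithmic axis) of the 5 genes with the smallest p among the 10, as reported and under 13 alternative settings, with the threshold of 0.05 as a dashed line. Dusp16 lies below the line under every setting shown, Spry1 under 2 of the alternatives, and Spry2, Dusp2 and Dusp4 under none.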

How the data were processed

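Gene expression was read from 1 deposited table, in which the authors give a value for each of 65956 transcript clusters on each of 6 arrays. The submitters' processing notes name MAS5, with no version or role. The sources used here do not give background correction, normalization or log base. The deposited values, taken here as log2, ran from 2.04 to 19.93 and were used unchanged, with no pseudocount. Precision is set by there being 3 arrays of each genotype. The platform annotation named 30604 clusters with 1 symbol, 2146 with several and 33206 with none, and 827 symbols were updated by gene ID from RefSeq.

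The dimmest 40% of clusters by mean over the 6 arrays were left out (limit 4.09). A model with genotype alone was fitted to the other 39543 with limma 3.58.1 in R 4.3.3 (lmFit, then eBayes with an intensity trend). The two-sided p-values were adjusted by Benjamini-Hochberg over every cluster in the fit, and a call means an adjusted p under 0.05. SEs and 95% intervals are the moderated ones. The fit was tested on simulated data. Python 3.11.15, pandas 2.3.3 and matplotlib 3.10.9 were used for tables, motifs and plots.

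The 10 genes and all lists were chosen with earlier results of these data known. Named are the 10 genes, Cdk19, all their other family members, from each other pathway list up to 4 called genes a direction by p (or, where a direction had none, the 1 with the largest change that way), a few ERK targets whatever their values, the 3 genes most like the member of the smallest p, a few defining markers, and the called markers among the 2 of smallest p in each marker list. Alternatives were quantile normalization, a common median, no filter or a stricter one (60%), no intensity trend, robust moderation, a replicate block and each array left out. Some list genes are not reported here. The protein motif planned for the phosphatases was not searched.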

Additional observations from a re-analysis of the deposited data

How the results depend on the processing

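Dusp16 was called higher in all 13 alternatives, with changes of 0.56 to 0.62 and limma adjusted p of 0.00222 to 0.0259. Each of the 10 genes had 1 cluster, so the planned choice of another cluster gave no value. Spry1 (-0.26) passed under robust moderation (limma adjusted p = 0.0474) and after the stricter filter (0.0384), which made the count of the 10 genes called lower 1 under each; it ranged from -0.29 to -0.22 with adjusted p of 0.0764 to 0.193 without 1 array. The small changes of 3 genes turned sign: Dusp5 was 0.0311 under quantile normalization and -0.05 to 0.01 without 1 array (0.005 without wild-type array 2), Dusp6 was -0.16 to 0.04 without 1 array (0.0367 without knockout array 2), and Dusp10 was 0.0064 under quantile normalization. None of these passed the limma test, and the cause was not tested. The other 7 genes kept their direction in every alternative that gave a change other than 0.

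Over all clusters, 1172 were called higher and 1914 lower. With 1 array left out, 540 to 970 were called higher and 761 to 1507 lower, in fits with fewer arrays, and wild-type array 3 gave the lowest of both (540 and 761). The count higher was also beyond 1.5 times without knockout array 1 (771) and wild-type arrays 1 (673) and 2 (593), and the count lower without knockout array 2 (1168) and wild-type arrays 1 (1040) and 2 (868). With the replicate block, 630 were called higher and 1083 lower, and Dusp16 was 0.60 with a limma adjusted p of 0.0259. Deviations of same-numbered arrays correlated at -0.14, -0.10 and 0.02, and those of differently numbered arrays at -0.13 to 0.21. The labels do not say whether the numbers pair the arrays. With 3 arrays of each genotype, these correlations cannot decide it. With the block, 0 of the other family genes, 0 atypical phosphatase genes, 1 Ras and ERK inhibitor higher and 1 lower, 1 p38 and JNK cascade gene higher and 0 lower, and 0 MAPK-activated kinases lower were called. The block left 5 MAPK targets and 4 handling and stress genes called higher. Quantile normalization gave 2 ERK cascade genes higher and 2 MAPK-activated kinases lower. A common median, which shifted the median of all clusters to -0.03, gave 1 Ras and ERK inhibitor higher and 1 p38 and JNK cascade gene in each direction. The count of p38 and JNK cascade genes lower was 1 without the filter and 0 without any 1 array, and that of Ras and ERK inhibitors higher was 1 after the stricter filter.

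The unstated log base and the 3 arrays of each genotype limit these results, and compression near the top of the scale, where Dusp1 and Fos lie, was not tested. A p above the threshold does not show equal levels.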

Other observations

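The genes next to Spry1 and Spry2, picked by position after the values were seen, were read from the same fit. Spata5, beside Spry1 on chromosome 3, was at 9.17, 9.01 and 9.02 in the knockout arrays, against 8.92, 8.91 and 8.93 in the wild-type arrays. It differed by 0.15, in the other direction from Spry1, and was not called (limma adjusted p = 0.254). Its other neighbour, Gm5148, was too dim to test. Ndfip2, beside Spry2 on chromosome 14, was at 6.76, 6.55 and 6.63 in the knockout arrays, against 6.41, 6.44 and 6.52 in the wild-type arrays. It differed by 0.19, in the same direction as Spry2, and was not called (limma adjusted p = 0.217). Trim52, on the other side, differed by -0.02 (limma adjusted p = 0.928).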
